A study of Mus musculus with 4 samples.

Results

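The genes described here are named for proteins of the cytosolic ribosome, and they were taken from microarrays of a pair of proliferating erythroid cell types, MEL and ES-EP. A gene was included where the array's gene table paired a probe set with a single symbol that began with Rpl or Rps and a digit, leaving out the ribosomal S6 kinases and the pseudogenes marked as such. This gave 59 of the 19938 genes that had a probe set of their own, 35 named for the large subunit (Rpl) and 24 for the small subunit (Rps). Among them at least Rps19bp1 and Rpl7l1 do not encode structural proteins of the ribosome, and others, such as Rps23rg1, were not checked for this. For a gene with several probe sets the one with the highest mean signal over the 4 arrays was used.

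MEL are murine erythroleukemia cells, transformed cells arrested early in red cell development. By the study's methods they were the DS19 clone carrying a GATA-1/ER fusion and were grown in DMEM with serum and puromycin. ES-EP were grown out of mouse embryonic stem cells as red cell progenitors without transformation, in StemPro34 with erythropoietin, stem cell factor, IGF-1 and dexamethasone. There were 2 cultures of MEL (A and B) and 2 of ES-EP (A and B), with 1 Affymetrix Mouse Gene 1.0 ST array each. MEL is 1 clone, and cell type, transformation, fusion protein and medium cannot be told apart in this design. Values are log2 signals, so a difference of 1 is a 2-fold change, and less RNA per cell cannot be told apart from fewer cells of a type.

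A ribosome is built from a large and a small subunit, each made of ribosomal RNA and one copy of most of its proteins. The messenger RNAs of these proteins begin with a tract of pyrimidines, the 5′ TOP motif, through which the mTOR pathway controls their translation. Red cell precursors depend on a high output of ribosomes, and in humans inherited mutations in many of these genes cause Diamond-Blackfan anaemia, a failure of red cell production. Several ribosomal proteins also have a close copy encoded elsewhere in the genome, named with a final l, and the mouse genome holds many processed pseudogenes of the family.

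RefSeq start-site windows are shown first for some members with large differences, or with differences seen on more than 1 probe set. The genes were picked by expression and not by sequence, and Rpl34, Rpl26 and Rpl32l, with large differences too, are not shown. Of the 2 starts of Rps27l only the first is shown, and of the 2 of Rps21 only the second. The starts left out hold a CGGAAG match but no marked pyrimidine run. The windows of Rpl36a and Rps3a1 and of the first start of Rpl22 hold no marked pyrimidine run. Windows were available for 48 of the 59 members and for 15563 of all genes. Each line below runs 5′ to 3′ on the strand of the gene from 70 bases before the annotated start to 30 bases after it, in GRCm38.p6. Capitals mark a run of at least 8 bases of C or T, or a match to CGGAAG or GAGGAAG on either strand. CGGAAG holds the core bound by ETS factors, and GAGGAAG is a form of the PU.1 motif.
Rpl22, first start, chr4:152324366-152324465, plus strand: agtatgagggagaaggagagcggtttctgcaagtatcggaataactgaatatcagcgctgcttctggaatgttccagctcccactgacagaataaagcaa
Rpl22, second start, chr4:152325656-152325755, plus strand: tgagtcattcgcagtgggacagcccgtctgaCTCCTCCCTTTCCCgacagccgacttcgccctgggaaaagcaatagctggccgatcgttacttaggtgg
Rpl14, chr9:120571447-120571546, plus strand: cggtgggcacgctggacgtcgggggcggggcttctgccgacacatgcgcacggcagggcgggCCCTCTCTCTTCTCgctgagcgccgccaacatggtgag
Rpl36a, chrX:134585584-134585683, plus strand: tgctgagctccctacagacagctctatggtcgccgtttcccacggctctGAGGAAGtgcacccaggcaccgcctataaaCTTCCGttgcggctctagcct
Rps27l, first start, chr9:66946016-66946115, plus strand: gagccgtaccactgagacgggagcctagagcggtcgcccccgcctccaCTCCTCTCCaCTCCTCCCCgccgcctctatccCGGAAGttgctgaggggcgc
Rps3a1, chr3:86142639-86142738, minus strand: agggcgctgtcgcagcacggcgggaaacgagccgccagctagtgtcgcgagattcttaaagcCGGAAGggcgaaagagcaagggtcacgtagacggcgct
Rps28, chr17:33824533-33824632, minus strand: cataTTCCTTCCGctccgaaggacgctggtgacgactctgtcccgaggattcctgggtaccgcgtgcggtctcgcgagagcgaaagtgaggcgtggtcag
Rps21, second start, chr2:180257379-180257478, plus strand: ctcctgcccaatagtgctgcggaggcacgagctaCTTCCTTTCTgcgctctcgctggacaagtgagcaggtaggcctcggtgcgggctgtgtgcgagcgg
Rpl38, chr11:114668510-114668609, plus strand: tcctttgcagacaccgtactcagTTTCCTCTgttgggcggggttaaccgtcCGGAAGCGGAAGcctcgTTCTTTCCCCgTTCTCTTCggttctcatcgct

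In Rpl14 the pyrimidine run lay from base -8 to base 6 around the annotated start, where base 1 is the first transcribed base. In Rpl38 the middle of 3 runs, from -2 to 8, likewise covered the start. The runs lay before the start in Rps27l, from -22 to -14 and from -12 to -4, and at the second start of Rps21, from -36 to -27. A run that covered the annotated start was found in 13 of the 48 members (27.1%), against 4.36% of all 15563 genes. A run anywhere in the window was found in 31 members (64.6%), against 39.5% of all genes. CGGAAG or its complement occurred in the 300 bases around the start, 250 before and 50 after, in 32 members (66.7%) and in 24.7% of all genes, whereas GAGGAAG occurred in 8 members (16.7%) and in 15.0% of all genes. By call in the comparison below, CGGAAG was found in 5 of 9 members higher in MEL, 15 of 22 lower in MEL and 12 of 17 not called. In the same order, a run anywhere in the window was found in 4, 18 and 9, and GAGGAAG in 3, 4 and 1. A run over the start was found in 3, 6 and 4. The splits by call were not tested. All of these are letter matches at any start RefSeq lists for a gene and say nothing of binding.

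The comparison asked how the signal of each ribosomal protein gene in MEL differed from that in ES-EP. A gene was called where limma's moderated test, fitted to all 19938 genes, gave a Benjamini-Hochberg adjusted p under 0.05. Of the 59 members, 12 were called higher in MEL, 25 were called lower in MEL and 22 were not called. The share called was 62.7%, against 63.8% of all genes. The share higher was 20.3%, against 20.5% of all genes, and the share lower was 42.4%, against 43.2%. The median difference of the members, MEL minus ES-EP, was -0.15, the same to 2 decimals as the median of all genes. Without Rps19bp1 and Rpl7l1 the median of the 57 members left was -0.164. In this fit, then, the family was called about as often as the genes of the whole array. The split of the members' calls differed between scalings. After subtraction of each array's own median, 17 were higher and 13 lower (28.8% and 22%, against 28.9% and 28.3% of all genes). The members' median was then -0.01, as was that of all genes. Quantile normalization gave 14 and 17 (23.7% and 28.8%, against 26.8% and 30%), and cyclic loess 15 and 17 (25.4% and 28.8%, against 28.5% and 27.4%). The members' medians were then -0.105 and -0.104, against -0.0269 and -0.00319 for all genes. The cause of the split was not tested. Leaving out MEL A gave 8 members higher and 14 lower (13.6% and 23.7%, against 16.6% and 35.3% of all genes). Leaving out MEL B gave 5 and 16 (8.47% and 27.1%, against 17.4% and 32.1%), and leaving out ES-EP B gave 6 and 24 (10.2% and 40.7%, against 20.1% and 37.2%). Individual members moved in opposite directions by more than the spread of duplicate cultures, and those are described by role below.

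**Figure D1:**
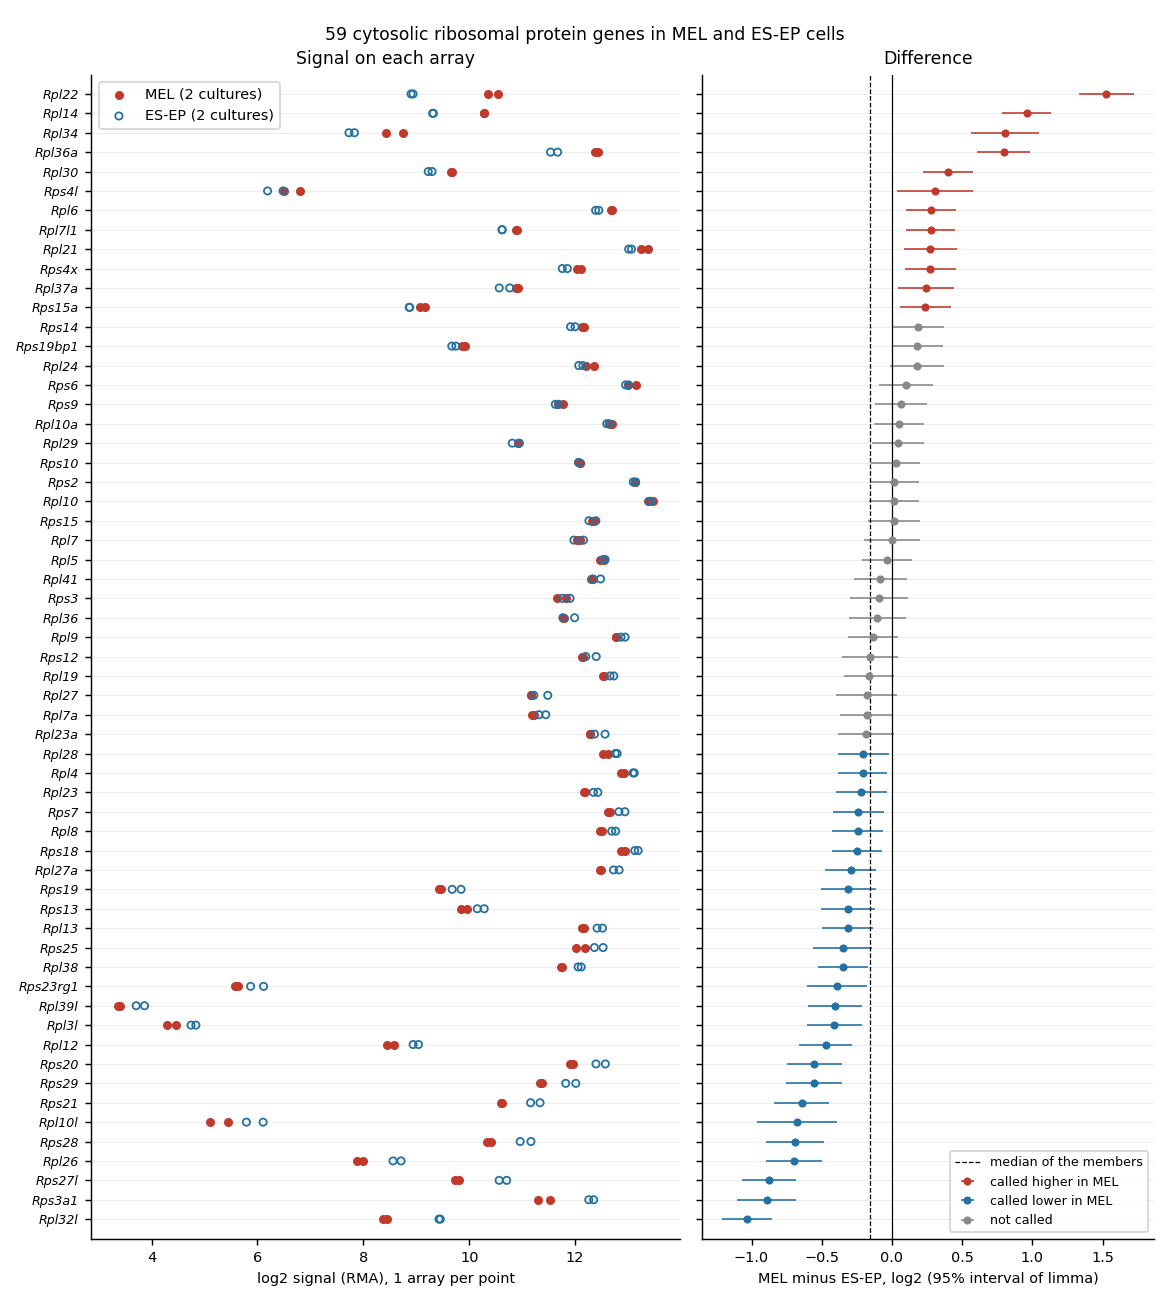
Log2 signal of each of the 59 genes on each array (left; MEL filled red, ES-EP open blue, 1 point per culture) and the difference MEL minus ES-EP with the 95% interval of the limma fit (right; red called higher in MEL, blue called lower, grey not called). Genes are ordered by difference, from Rpl22 at 1.53 to Rpl32l at -1.03, and the dashed line is the members' median.

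Sizes were small for most of the family. Called members that also differed by at least 2-fold numbered 2 (3.39%), against 10.0% of all genes, and they were Rpl22 and Rpl32l. The median of the mean signals was 11.9 for the members and 6.09 for all genes, so the 3.39% and 10.0% come from unlike signal levels. The 28 members with a mean signal of 12 or more differed by -0.55 to 0.79, and the 31 below that level by -1.03 to 1.53. At 12 or more, 0 of the 28 members and 2 of 108 other genes differed by at least 2-fold. The SD of duplicates had a median over the members of 0.04 in MEL and 0.07 in ES-EP. ES-EP A gave a higher signal than ES-EP B for 46 of the 59 members (median 0.08), while over all genes the median of that difference was -0.03. MEL A was above MEL B for 25 members (median -0.01).

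**Figure D2:**
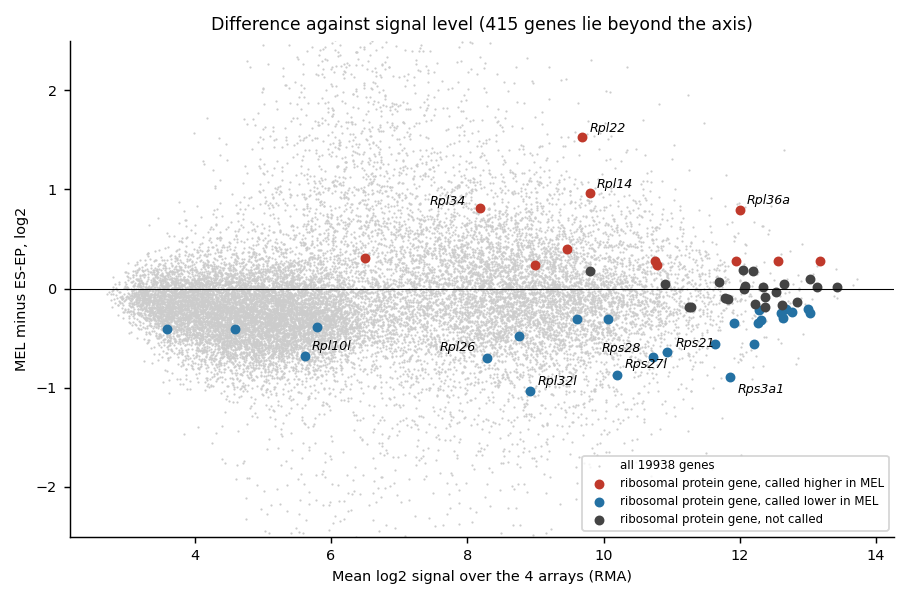
Difference MEL minus ES-EP (vertical, log2) against mean log2 signal over the 4 arrays (horizontal) for all genes in grey and the 59 ribosomal protein genes in colour (red called higher in MEL, blue called lower, dark grey not called). Members labelled by name differ by at least 0.6, and 415 other genes lie beyond the vertical axis, which stops at 2.5 in each direction.

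Among large-subunit proteins, Rpl22 showed the largest difference of the family. Rpl22 binds RNA on the surface of the large subunit, is dispensable for most protein synthesis in mice and is needed there for the development of alpha-beta T cells. Its signal was 10.54 and 10.36 in MEL, against 8.90 and 8.94 in ES-EP. The groups did not overlap, and the difference of 1.53 (SE 0.09) was 2.88-fold (limma adjusted p = 1.24e-07). Rpl22 had a single probe set.

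Rpl14, a protein of the large subunit, had signals of 10.27 and 10.28 in MEL, against 9.32 and 9.31 in ES-EP. Cultures of a type differed by about 0.01, and the difference between the types was 0.96 (SE 0.08), a 1.95-fold higher level in MEL (limma adjusted p = 2.23e-06). It too had a single probe set, and the calls of both Rpl22 and Rpl14 were kept under all 16 other ways of fitting the data.

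Rpl36a, whose gene is on the X chromosome, had signals of 12.37 and 12.43 in MEL, against 11.67 and 11.54 in ES-EP. The difference was 0.79 (SE 0.08), or 1.73-fold (limma adjusted p = 1.79e-05). A second probe set of Rpl36a differed by 0.71, and another that lists Rpl36a with Gm6525 differed by 0.76. All of these were called higher in MEL when every probe set on the array was fitted, and the call of the main probe set held under all 16 alternatives.

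Rpl34 was called higher on its own probe set but not on others that list its symbol. The signals of its own probe set were 8.43 and 8.75 in MEL, against 7.73 and 7.83 in ES-EP, a difference of 0.81 (SE 0.11; limma adjusted p = 1.01e-04). The 4 probe sets that list Rpl34 together with other symbols, with mean signals of 11.3 to 12.1, differed by -0.09 to 0.16 and none was called. Rpl30, which also regulates its own splicing in yeast, stood likewise: 9.67 and 9.65 in MEL, against 9.30 and 9.23 in ES-EP on its own probe set (0.40, SE 0.08, limma adjusted p = 0.00143). The 10 shared probe sets of Rpl30 gave -0.01 to 0.24, with no call. Which of the readings follows the protein-coding transcript was not tested.

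The other large-subunit members higher in MEL differed by less than 0.3. Rpl6 had a difference of 0.28, Rpl21 of 0.27 and Rpl37a of 0.24. For Rpl21 all 9 of its own probe sets gave a positive difference, from 0.15 to 0.29, and 4 of 32 probe sets shared with other symbols were called higher. Rpl6 was less even, with its 3 probe sets at 0.28, 0.18 and -0.05. The call of Rpl6 was lost without MEL A (0.27), MEL B (0.29) or ES-EP B (0.25), and that of Rpl21 without MEL B (0.21) or ES-EP B (0.25).

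Of the large-subunit members lower in MEL, Rpl32l had the greatest difference. Rpl32l is a gene with a sequence close to that of Rpl32. Its signals were 8.38 and 8.44 in MEL, against 9.45 and 9.43 in ES-EP, which is 2.04-fold lower in MEL (-1.03, SE 0.08, limma adjusted p = 1.47e-06). The probe set that lists both Rpl32l and Rpl32, with a mean of 12.4, differed by -0.12 and was not called. The difference at Rpl32l can therefore not be read as one of Rpl32.

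Rpl26, which in human cells also binds p53 messenger RNA, gave readings of opposite sign. On its own probe set the signal averaged 7.94 ± 0.09 in MEL and 8.64 ± 0.11 in ES-EP (SD, n = 2 each), and the groups did not overlap (-0.70, SE 0.09, limma adjusted p = 7.02e-05). The 3 probe sets that list Rpl26 with Gm15772 had mean signals of 10.4 to 10.8 and differed by 0.12 to 0.53, and 1 of them was called higher in MEL. No direction is therefore given for Rpl26.

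Rpl13 and Rpl38 were the large-subunit members with several probe sets in which every one was called lower in MEL. Rpl13 had signals of 12.17 and 12.13 in MEL, against 12.52 and 12.42 in ES-EP, and all 9 of its probe sets were called lower, by -0.62 to -0.31. Rpl38, which in mice is needed for translation of a subset of Hox messenger RNAs and for normal patterning of the axial skeleton, had 11.75 and 11.72 in MEL, against 12.12 and 12.06 in ES-EP. All 4 of its probe sets were called lower, by -0.51 to -0.35. Rpl23a had 13 probe sets (11 distinct in value), all with negative differences, from -0.53 to -0.18. The one used was the only one not called, with 12.28 and 12.29 in MEL, against 12.56 and 12.37 in ES-EP. Rpl27a was called lower by -0.295, with 4 of its 9 probe sets called and differences of -0.33 to -0.20. The probe sets of Rpl28 (5), Rpl27 (4), Rpl19 (7) and Rpl9 (8) were also all negative, and at most 1 of each gene's was called. For Rpl23, called lower by -0.22, the second probe set gave 0.04, and the sets of Rpl36, Rpl10a and Rpl7a, none of which was called, ran from -0.41 to 0.07, -0.12 to 0.05 and -0.18 to 0.12. The call of Rpl27a was lost without MEL A (-0.30), MEL B (-0.29) or ES-EP A (-0.24), that of Rpl23 without MEL A (-0.23), MEL B (-0.21) or ES-EP A (-0.17), and that of Rpl28 without any 1 culture (-0.25 to -0.16).

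Rpl12, part of the stalk base where elongation factors bind, fell by 0.47 on its own probe set, and its 8 shared probe sets gave -0.28 to -0.20 without a call.

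Small-subunit proteins had 3 members higher in MEL and 12 lower, with a median of -0.20. The share called was 62.5% (12.5% higher and 50% lower), near the 63.8% of all genes. Rps28, Rps21 and Rps29 are short proteins, and the genes of Rps28 and Rps29 are among those mutated in human Diamond-Blackfan anaemia. Rps28 had signals of 10.33 and 10.41 in MEL, against 11.17 and 10.96 in ES-EP. It was 1.61-fold lower in MEL (-0.69, SE 0.09, limma adjusted p = 9.45e-05), and 6 of its 7 probe sets were called lower. Of the 7 only 6 were distinct in value. Rps21 had 10.60 and 10.61 in MEL, against 11.34 and 11.16 in ES-EP (-0.64, SE 0.09, limma adjusted p = 1.13e-04), and its second probe set gave -0.61. Rps29 had 11.34 and 11.38 in MEL, against 12.01 and 11.82 in ES-EP (-0.56, SE 0.09, limma adjusted p = 3.40e-04), with 2 of its 4 probe sets called.

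In each of these 3 genes ES-EP A was above ES-EP B, and both were above either MEL culture. The same held for Rps20, another gene of the anaemia, with 11.96 and 11.90 in MEL, against 12.57 and 12.39 in ES-EP (-0.55, SE 0.09, limma adjusted p = 3.23e-04). Over the 16 alternatives, the fit without ES-EP A among them, the differences lay between -0.79 and -0.54 for Rps28, -0.73 and -0.49 for Rps21, -0.65 and -0.41 for Rps29, and -0.64 and -0.41 for Rps20. These calls were lost only under the stricter Holm adjustment.

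Rps3a1, a small-subunit protein near the messenger RNA exit, gave a large difference on its own probe set: 11.30 and 11.52 in MEL, against 12.35 and 12.26 in ES-EP (-0.89, SE 0.09, limma adjusted p = 1.66e-05). The call held under all 16 alternatives. The 2 probe sets that list Rps3a1 with Tapbp, with mean signals of 12.6 and 12.7, nevertheless differed by -0.08 and -0.03 and were not called.

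Rps18 was called lower by -0.25, and 6 of its 7 probe sets were called lower when every probe set was fitted, with a range of -0.51 to -0.25. The set not called in that fit was the one used. Without MEL A (-0.28), MEL B (-0.21) or ES-EP B (-0.22) its call was lost. Rps25 was called lower by -0.35, with 1 of 6 probe sets called and a range of -0.36 to -0.001, and lost its call without MEL A (-0.26) or ES-EP A (-0.27). Rps2, Rps6 and Rps9 were not called, and their probe sets ran across 0, from -0.21 to 0.02, -0.07 to 0.11 and -0.13 to 0.07.

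Rps13 fell on all 3 of its probe sets, by -0.48 to -0.31, with main signals of 9.85 and 9.96 in MEL, against 10.28 and 10.15 in ES-EP. Rps19, the gene most often mutated in human Diamond-Blackfan anaemia, had 9.43 and 9.47 in MEL, against 9.85 and 9.68 in ES-EP. Its difference of -0.31 (SE 0.09, limma adjusted p = 0.00997) lost its call under 7 of the 16 alternatives, among them the fits without MEL A (-0.29), MEL B (-0.33) or ES-EP A (-0.23), and 3 shared probe sets gave -0.32 to -0.23 without a call. Rps4x, encoded on the X chromosome, was higher in MEL on all 5 of its probe sets, by 0.27 to 0.42, of which 4 were called, but lost its call without MEL B (0.24) or ES-EP B (0.23). Rps15a was called higher by 0.24 on its own probe set, while its 2 shared probe sets gave -0.14 and -0.04, and no fit without 1 culture called it (0.19 to 0.29).

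**Figure D3:**
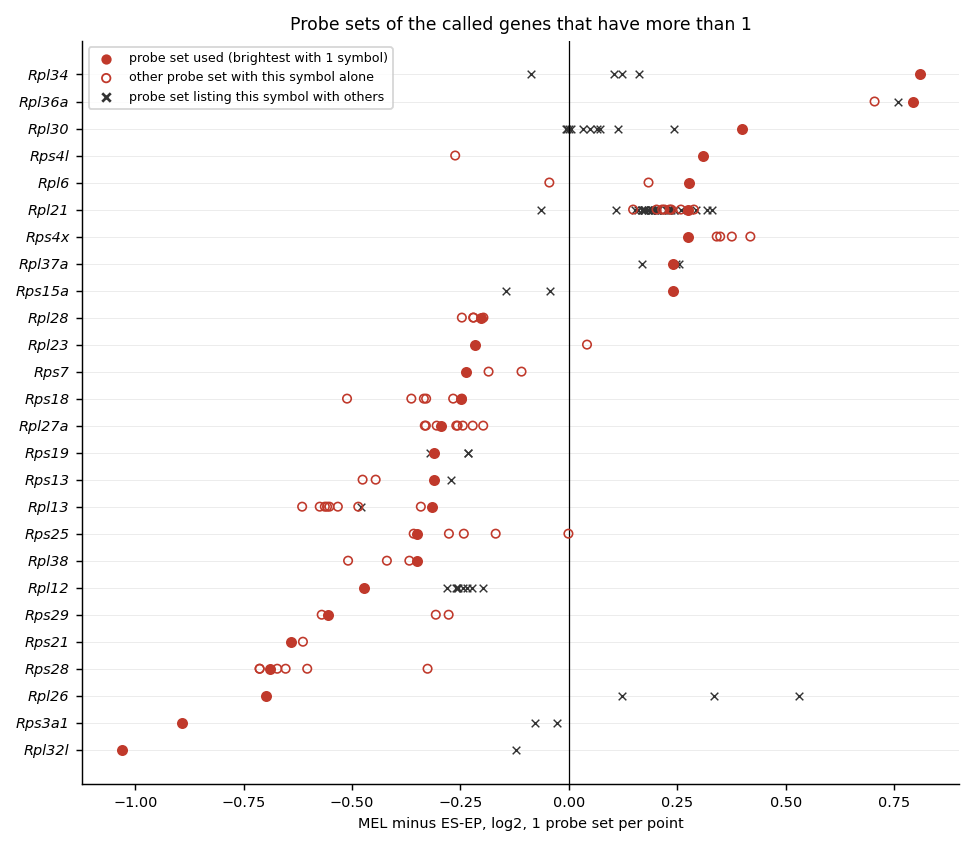
Difference MEL minus ES-EP (horizontal, log2) of every probe set of the 26 called genes that had more than 1, with the probe set used as a filled red circle, others with that symbol alone as open red circles, and probe sets that list the symbol with others as crosses. For Rpl36a, Rpl13, Rpl38, Rps13 and Rps21 all circles lie on one side of 0 and all were called, although those of Rpl13 spread from -0.62 to -0.31, whereas for Rpl34, Rpl26, Rps3a1 and Rpl32l the crosses lie far from the filled circle.

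Probe sets of one gene often gave unlike readings. Of the 59 members 36 had several probe sets, up to 14 for Rps12 (8 distinct in value). Of the 186 probe sets of these members 174 were distinct, and the rest repeated the values of another set of the gene. In 24 of the 36 members the probe sets disagreed in call or in sign, although no gene was called in both directions. These calls are those of the fit to all probe sets. The probe sets agreed in 12 genes, of which 5 were called in that fit: Rpl13, Rpl36a, Rpl38, Rps13 and Rps21. Rps7, also among the 12, was called lower in the main fit but not in that one. In addition, 18 members were listed on probe sets shared with other symbols. Shared probe sets were called in the fit to all probe sets, which called 45.1%, against 63.8% of genes in the main fit. Of the 13 members among these that the main fit called, 10 had no shared probe set called in the same direction. For 1 member, Rpl26, a shared probe set was called the other way. On the probe sets used, the fit to all probe sets called 8 of the 59 members higher and 19 lower. These were 13.6% and 32.2%, against 17.3% and 34.2% of all genes. The sets used for Rpl21, Rpl37a, Rps15a and Rps4l, called higher in the main fit, were not called in that one. Nor were those used for Rpl4, Rpl8, Rpl23, Rpl28, Rps7 and Rps18, called lower in the main fit. Over all 237 probe sets that list a ribosomal protein symbol with others, 7 were called higher in MEL and 18 lower (10.5% in all), against 45.1% of the 35557 probe sets in the same fit, and their median difference was near 0 (-0.00045).

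The variant and copied members were examined against their partners. Rps27l, encoded by a target gene of p53 and a close copy of Rps27, had signals of 9.80 and 9.73 in MEL, against 10.71 and 10.57 in ES-EP. It was 1.83-fold lower in MEL (-0.87, SE 0.09, limma adjusted p = 9.65e-06), on its single probe set and under all 16 alternatives. The 2 probe sets that list Rps27 with Rps27rt differed by -0.13 and -0.03 and were not called. Rpl22 likewise has a copy, Rpl22l1, whose level rises in mice that lack Rpl22. In these arrays Rpl22l1 shared its 2 probe sets with Gm15421, which differed by 0.56 and 0.32 without a call. MEL A and MEL B were apart by about 0.5 on both, at 8.64 and 9.17 on the first, against 8.41 and 8.28 in ES-EP.

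Rpl7l1, a Rpl7-related protein that acts in ribosome assembly and is not a subunit, was higher in MEL, at 10.89 and 10.90, against 10.62 and 10.62 in ES-EP (0.28, SE 0.08, limma adjusted p = 0.0106), a call that was lost without MEL A or MEL B (0.28 and 0.27). Its partner Rpl7 showed no call, with 12.04 and 12.10 in MEL, against 12.16 and 11.98 in ES-EP (95% interval of the difference from -0.20 to 0.20). Rpl10 was not called either, at 13.47 and 13.39 in MEL, against 13.41 and 13.42 in ES-EP (interval from -0.17 to 0.19). Rpl10l, a copy of Rpl10 that serves in the testis, had only 5.44 and 5.11 in MEL, against 6.11 and 5.79 in ES-EP. These values lay near the 95th percentile of 1027 olfactory receptor genes, taken as a measure of background, which was 5.19 in MEL and 5.56 in ES-EP. Rpl3l and Rpl39l, copies known from muscle and testis, were below that level in both cell types, and no direction is given for them. The 2 probe sets of Rps4l differed by 0.31 and -0.26, and the call of the first was lost without MEL B (0.16) or ES-EP B (0.16).

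Members of the Diamond-Blackfan group were counted separately, using a list of 21 human disease genes, 10 of which had no probe set of their own here. Of the 11 measured, 1 was higher in MEL (Rps15a), 6 were called lower on the probe set used (Rpl26, Rps28, Rps29, Rps20, Rps19 and Rps7) and 4 were not called (Rpl5, Rpl27, Rps10 and Rps14). The share called was 63.6%, against 63.8% of all genes, and the median was -0.24, against -0.15. Without Rpl26, whose shared probe sets read the other way and which was set aside after the values were seen, 5 of 10 were lower and the median was -0.21. Rps7 lost its call without MEL A (-0.22), MEL B (-0.26) or ES-EP A (-0.18). Rpl5, which with Rpl11 restrains Mdm2 when ribosome assembly fails, had 12.48 and 12.55 in MEL, against 12.57 and 12.53 in ES-EP. Rps14, lost with part of a chromosome arm in a human myelodysplastic syndrome, averaged 12.14 ± 0.03 in MEL and 11.96 ± 0.06 in ES-EP (SD, n = 2 each), a difference of 0.19 that was not called (limma adjusted p = 0.0647).

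Ribosomal proteins whose symbols the rule does not cover gave 3 lower and 2 not called of 5 (60% called, against 63.8% of all genes). Rplp1 and Rplp2 form the acidic stalk that recruits elongation factors. Rplp1 had 12.75 and 12.63 in MEL, against 13.14 and 13.17 in ES-EP (-0.46, SE 0.08, limma adjusted p = 7.46e-04). Rplp2 fell by 0.63 at a much lower signal, 6.77 and 6.44 in MEL, against 7.19 and 7.28 in ES-EP. Whether so dim a probe set follows the main transcript was not tested. Rplp0, on which Rplp1 and Rplp2 are anchored, differed by -0.01 and was not called. Mitochondrial ribosomal proteins, 77 genes of a separate ribosome, had 13 higher and 33 lower (59.7% called) and a median of -0.15.

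**Figure D4:**
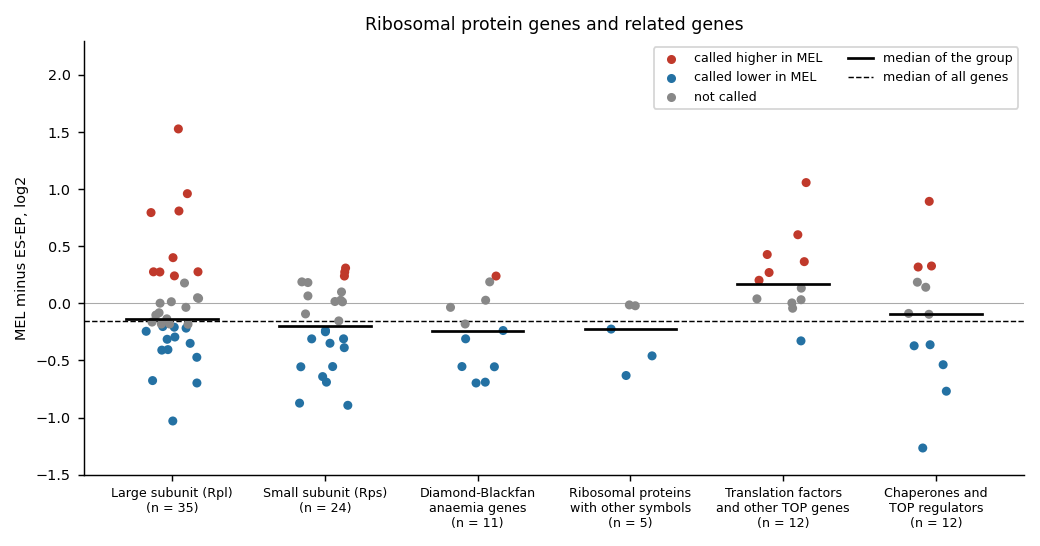
Difference MEL minus ES-EP (vertical, log2) for each gene of the large and small subunit and of 4 related lists, with red for called higher in MEL, blue for called lower and grey for not called. Black bars are group medians and the dashed line is the median of all genes, -0.15. The medians of the large and small subunit are -0.14 and -0.20, and that of the other TOP genes is 0.17.

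Of 14 other genes listed for a 5′ TOP messenger RNA, mostly translation factors, 12 were measured. Of the 12, 6 were higher in MEL (50%, against 20.5% of all genes), 1 was lower (8.33%, against 43.2%) and 5 were not called. The median was 0.17, and 58.3% were called, against 63.8% of all genes. Eef1d, a subunit of the nucleotide exchange factor of elongation factor eEF1A, had 10.22 and 10.20 in MEL, against 9.15 and 9.15 in ES-EP (1.06, SE 0.08, limma adjusted p = 1.03e-06). Eif4b, which stimulates the helicase of initiation, rose by 0.60, Nap1l1 by 0.43 and Eif3e, a subunit of initiation factor eIF3, by 0.37. Tpt1 fell by 0.33. Eef1a1 and Eef2, the main elongation factors, differed by 0.04 and 0.03 and were not called.

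Of 12 chaperones of ribosomal proteins and regulators of TOP translation, 3 were higher in MEL and 5 were lower (66.7% called, against 63.8% of all genes). Tsr2, which escorts Rps26 and is mutated in rare human cases of the anaemia, had 9.65 and 9.57 in MEL, against 8.62 and 8.82 in ES-EP (0.89, SE 0.09, limma adjusted p = 1.36e-05). Ltv1, an assembly factor of the small subunit, had 8.52 and 8.63 in MEL, against 9.85 and 9.84 in ES-EP, which is 2.41-fold lower in MEL (-1.27, SE 0.08, limma adjusted p = 3.26e-07). Among mTOR pathway genes, Mtor was higher by 0.33, whereas Rptor fell by 0.54, Rps6kb2 by 0.37 and Eif4ebp2, a translational repressor, by 0.77. Larp1, which binds TOP messenger RNAs, differed by -0.09 and was not called.

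Markers of cell type were read alongside. Of all genes 63.8% were called, 20.5% higher in MEL and 43.2% lower. Of 6 erythroid markers 1 was higher in MEL (Gata1, by 1.14), 4 were lower, among them Alas2, the first enzyme of heme synthesis, by -3.12, and Epor was not called. MEL carried the GATA-1/ER fusion, and whether the Gata1 probe set also reads it was not tested. Of 5 mast cell markers 4 were lower in MEL, with mean log2 signals over the list of 4.63 and 4.57 in MEL, against 6.69 and 6.65 in ES-EP. Ms4a2 had 4.08 and 3.83 in MEL, against 11.15 and 10.96 in ES-EP, while Cpa3, Fcer1a and Mcpt8 were below the olfactory level in both. All 3 megakaryocyte markers were higher in MEL, with list means of 8.31 and 8.18 in MEL, against 5.75 and 5.71 in ES-EP. All 3 fibroblast markers were called lower in MEL, by -0.38 to -0.25, with Dcn below the olfactory level in both. Of 4 macrophage markers 1 was called, Csf1r, with 4.76 and 4.65 in MEL, against 5.68 and 5.54 in ES-EP. Its mean was above the olfactory level only in ES-EP. Of 3 embryonic stem cell markers 1 was called, Nanog, lower by -0.39, with Pou5f1 and Sox2 below the olfactory level in both. The part of these in the ribosomal protein differences was not tested.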

How the data were processed

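Each of 4 cultures, 2 of MEL and 2 of ES-EP, was hybridised to its own array (Affymetrix Mouse Gene 1.0 ST). Per the labels, the authors made the deposited log2 values by RMA in GeneSpring GX, and the submitters' processing notes name the mm9 build. Array medians still differed between the cell types, at 5.67 for MEL B and 5.84 for ES-EP B. The number of arrays limits the precision. Where nothing else tells cultures of a type apart, p-values measure the spread between these samples only.

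Of 35557 probe sets, 21789 had 1 symbol, 1621 had several and 12147 were unnamed here. Sets with several symbols stayed out of the gene tests. The difference was MEL minus ES-EP, with two-sided p-values from lmFit and eBayes of limma 3.58.1 in R 4.3.3 (2 residual and 8.2 prior degrees of freedom) and Benjamini-Hochberg over 19938 genes. An exact permutation test of 2 against 2 arrays cannot reach 0.05. Replicate letters did not pair the cultures (correlation of deviations -0.04). The fit was tested on simulated data.

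Probe-set comparisons used a fit to all probe sets, which called 45.1%. Start-site windows were RefSeq's for GRCm38.p6, matched by gene number. The text names the 8 called members that differed most each way, called Diamond-Blackfan genes, copies, members whose probe sets disagree, and up to 4 called genes per list. Members and lists were chosen with earlier results of these data known. Alternatives were other normalizations, filters, probe-set rules, variance priors, adjustments, a replicate block, a 1.2-fold null and leaving out each array.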

Additional observations from a re-analysis of the deposited data

How the results depend on the processing

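The count of members higher in MEL (12), the count lower (25) and the median difference (-0.15) depended on scaling and stringency. Median centring gave 17 higher and 13 lower (28.8% and 22%, against 28.9% and 28.3% of all genes). The members' median was then -0.01 (-0.00513), and the balance of calls was turned. The Holm adjustment left 3 higher and 3 lower (5.08% each, against 7.44% and 6.79% of all genes). A test against a 1.2-fold difference left 4 higher and 9 lower (6.78% and 15.3%, against 12.5% and 19.6%). An eBayes fit with a trend went the other way, with 15 higher and 31 lower (25.4% and 52.5%, against 21.1% and 43.5% of all genes). Leaving out 1 culture gave 5 to 11 higher (8.47% to 18.6%, against 16.6% to 20.1% of all genes), 14 to 24 lower (23.7% to 40.7%, against 32.1% to 39.2%) and medians of -0.197 to -0.084. With the replicate block 12 were higher and 22 lower (20.3% and 37.3%, against 20.5% and 43.2% of all genes). Quantile normalization gave 14 and 17 (23.7% and 28.8%, against 26.8% and 30%). Cyclic loess gave 15 and 17 (25.4% and 28.8%, against 28.5% and 27.4%). Of 29 called genes among the 43 named by the rule, 6 kept their call in all 16 alternatives (Rpl22, Rpl14, Rpl36a, Rpl32l, Rps3a1 and Rps27l). None of the 29 was reversed, and 7 of the 14 others gained a call under some alternative. What caused these shifts was not tested. With 2 arrays per type the SE of a member was about 0.08 (median), and the smallest difference called among the members was -0.20 (Rpl28).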

Other observations

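A group of 20 ribosomal protein genes could be read only on probe sets that list other symbols too, so their values cannot be given to a gene. Among these, the 2 probe sets listing Rpl39 with Gm32211 were both called lower in MEL, by -0.52 and -0.49, with signals of 11.18 and 11.29 in MEL, against 11.79 and 11.71 in ES-EP on the first. The 3 listing Rpl35 with Itgam, an integrin of myeloid cells, were all called lower, by -0.43 to -0.36. Of 6 listing Rps23 with Gm8624, 5 were called lower (-0.34 to -0.16 over the 6). Of 8 listing Rpl31 with Rpl31-ps12 and Clpb, 5 were called lower (-0.47 to -0.29), whereas a probe set listing Rpl31 and Clpb alone gave 0.35 without a call. The 3 listing Rps26, whose chaperone Tsr2 was higher in MEL, with Gm6654 gave 0.06 to 0.09 without a call. The 8 listing Rpl15 with Gm6937 lay between -0.03 and 0.03.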
